A study of Mus musculus with 18 samples.

Results

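The genes of glucose import and lactate transport were followed in both experiments of the study, and 7 genes belong to this group. They are the facilitative glucose importers *Slc2a1* and *Slc2a3*, which encode GLUT1 and GLUT3, the proton-coupled monocarboxylate carriers *Slc16a1*, *Slc16a3*, *Slc16a7* and *Slc16a8*, which encode MCT1, MCT4, MCT2 and MCT3, and *Bsg*, which encodes basigin, the glycoprotein that several of these carriers need to reach the plasma membrane. They were taken by name and all 7 were found among the 78239 genes of each count table. Retinal RNA came from mice labelled C57BL/6J, whereas the methods of the study name the strain 129S6. The mice were injected subretinally at postnatal days 29 to 32 with an adeno-associated virus (AAV) carrying *nsHif1a*, a Myc-tagged mouse *Hif1a* whose protein is stable and active in normal oxygen, or eGFP, both under a promoter that restricts expression to rods. Retinas were collected at 3 weeks post injection (wpi), with 5 libraries per group. The labels do not say whether each of them came from a separate mouse. The second experiment used 661W cells, a photoreceptor-like line derived from a mouse retinal tumour, transfected with a plasmid carrying *nsHif1a* or eGFP under the ubiquitous CMV promoter and collected after 20 h, with 4 libraries per group. Nothing in the labels ties these 4 libraries to separate cultures, so their spread may be technical. The virus reaches part of the retina only, and whole retinas were sequenced, so that fewer cells of a type and less RNA per cell cannot be told apart.

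Glucose enters cells down its gradient through the SLC2A importers. Cells that turn much of their glucose into lactate release it together with protons through MCT4, a low-affinity exporter, while MCT1 and MCT2 have a higher affinity and serve import or export as the gradient dictates. Photoreceptors are known for strong aerobic glycolysis and receive their glucose through GLUT1 of the retinal pigment epithelium (RPE), whose basal and apical faces use MCT3 and MCT1 to carry lactate. *Slc2a1*, *Slc2a3* and *Slc16a3* are known targets of hypoxia-inducible factors, which bind DNA at hypoxia response elements.

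The depth was 12898220 to 17809585 counts per library. *Hif1a*, whose count also includes the transgene, stood at 638 to 698 CPM (counts scaled to a common effective library size) in the AAV::eGFP retinas and at 642 to 729 CPM in the AAV::*nsHif1a* retinas, which overlap. In 661W cells it rose from 150 to 164 CPM with eGFP to 1222 to 1954 CPM with *nsHif1a*. The 8 rod markers summed to 34305 to 48648 CPM in the retinas and to 8.89 to 13.2 CPM in the 661W libraries, and the 7 cone markers to 771 to 986 CPM and 1.10 to 1.94 CPM. The defining photoreceptor markers were thus close to absent from these cells.

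The members lie on 6 autosomes of GRCm39, and the promoters of the 3 genes that rose in both experiments are shown with that of *Slc16a1*, which rose in neither. Each runs from 250 bases before to 30 bases after the start of the canonical transcript (gencode M39), in the direction of transcription, with capitals marking ACGTG or GCGTG, the core letters of a hypoxia response element, on either strand.
*Slc2a1*: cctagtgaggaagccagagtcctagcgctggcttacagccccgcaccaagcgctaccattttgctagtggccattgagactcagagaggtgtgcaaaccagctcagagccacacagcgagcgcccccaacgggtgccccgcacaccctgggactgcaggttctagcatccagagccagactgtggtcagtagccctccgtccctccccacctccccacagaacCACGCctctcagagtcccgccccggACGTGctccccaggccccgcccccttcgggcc
*Slc2a3*: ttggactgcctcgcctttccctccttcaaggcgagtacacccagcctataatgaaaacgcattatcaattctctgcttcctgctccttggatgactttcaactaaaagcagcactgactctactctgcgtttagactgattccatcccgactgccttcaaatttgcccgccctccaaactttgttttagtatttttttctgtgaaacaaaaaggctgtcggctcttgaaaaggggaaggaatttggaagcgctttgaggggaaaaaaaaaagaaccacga
*Slc16a3*: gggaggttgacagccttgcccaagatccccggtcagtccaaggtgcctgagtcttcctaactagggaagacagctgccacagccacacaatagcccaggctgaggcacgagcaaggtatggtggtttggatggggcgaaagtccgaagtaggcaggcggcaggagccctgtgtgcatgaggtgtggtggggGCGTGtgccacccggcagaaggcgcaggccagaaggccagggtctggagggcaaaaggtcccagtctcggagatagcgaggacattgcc
*Slc16a1*: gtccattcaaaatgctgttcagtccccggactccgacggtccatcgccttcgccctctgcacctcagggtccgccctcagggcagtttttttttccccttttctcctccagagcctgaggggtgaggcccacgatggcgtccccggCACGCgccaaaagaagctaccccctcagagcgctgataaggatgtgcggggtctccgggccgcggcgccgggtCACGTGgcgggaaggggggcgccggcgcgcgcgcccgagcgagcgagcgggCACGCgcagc
The printed stretches are chr4:118965658-118965937 (plus strand), chr6:122719675-122719954 (minus strand), chr11:120839291-120839570 (plus strand) and chr3:104545561-104545840 (plus strand). The matches were counted over the whole window, which ends 50 bases after the start. *Slc2a1* held 1 ACGTG, whose first base lies 2 bases before the start, and 1 GCGTG on the opposite strand. *Slc16a3* held 1 GCGTG and *Slc2a3* held neither. *Slc16a1*, the gene that did not rise, held 5 matches, 2 of them overlapping within 1 CACGTG, and 1 of the 5 lies beyond the printed stretch. Of the others, *Bsg* held 2 matches, both in 1 CACGTG, *Slc16a7* held 1 and *Slc16a8* held 0. Among the windows of all 21751 protein-coding genes, 20.7% held ACGTG, 37% held GCGTG and 48% held at least 1 of them, while CACGTG occurred in 7.82%. The count of these letters in these windows thus did not sort the genes that rose from those that did not. Other starts of the same genes and more distant sequence were not searched.

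Which carrier genes each system expressed was read from the level per length, since counts of genes of different length cannot be compared. This level is counts per kilobase of exon scaled to the same total over all genes of a library. It describes RNA only, and the amount and transport of the carrier proteins were not measured here. The length was the exon union of gencode M39, a later release than the M36 used for counting, and that of *Slc16a3* (10999 bases) exceeds its canonical transcript (4701 bases) by far. *Bsg* was the most abundant member in both systems. In the control retinas (n = 5) it stood at 890 ± 31.9 (SD), followed by *Slc2a1* at 149 ± 7.85, *Slc16a1* at 101 ± 10.6, *Slc2a3* at 62.4 ± 4.04, *Slc16a3* at 18.03 ± 1.09 and *Slc16a7* at 3.79 ± 0.260. *Slc16a8* ranged from 1.77 to 42.7, which spans the levels of *Slc16a3* and *Slc16a7* at this length. By canonical length *Slc16a3* ranged from 31.7 to 36.01 and *Slc16a8* from 1.46 to 34.95 over these retinas, and the lowest share of *Slc16a3* among the carriers, 19.3%, was above the highest share of *Slc16a8*, 18.8%. In the control 661W cells (n = 4) *Bsg* stood at 721 ± 22.2, *Slc2a1* at 73.2 ± 2.49, *Slc16a1* at 45.8 ± 1.43, *Slc16a3* at 6.02 ± 0.756 and *Slc2a3* at 5.10 ± 0.480, and the values of *Slc16a3* and *Slc2a3* overlapped between libraries at this length. By canonical length they did not, with *Slc16a3* at 9.80 to 13.2 and *Slc2a3* at 3.90 to 4.74. Of these genes, *Slc2a1* was thus the more abundant importer and *Slc16a1* the most abundant monocarboxylate carrier in both control groups. The shares differed between the systems, with *Slc2a3* holding 29.5% ± 1.84 of the summed importer level in the control retinas and 6.51% ± 0.479 in the control cells.

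Compared with the control cells, the control retinas had higher levels of 4 of the 5 members that were counted well in both, a comparison in which 46.1% of the 20999 genes tested were called higher in the retina and 35.1% higher in the cells. *Slc2a3* was higher by a log2FC of 3.63 (SE 0.15, adjusted *p* = 9.5e-15), *Slc16a3* by 1.60 (SE 0.15, adjusted *p* = 7.0e-09), *Slc16a1* by 1.15 (SE 0.08, adjusted *p* = 2.6e-11) and *Slc2a1* by 1.04 (SE 0.08, adjusted *p* = 4.9e-10). *Bsg* differed by 0.32 (SE 0.06, adjusted *p* = 3.9e-05), under the fold threshold and close to the median of all genes tested, 0.30. *Slc16a7* had 0 counts in all 8 cell libraries against 1449 counts over the 5 control retinas, which is at least 413-fold higher when 3 counts over the group are taken as the limit in the control cells. *Slc16a8* had 808 counts over the control retinas and 1 over the control cells, a ratio of 691 with an exact interval of 124 to 27335 that covers counting error only. AAV::eGFP retina 3 alone held 434 of these counts, and without it the ratio was 411. Tissue, vector, promoter and time differ together here and cannot be told apart.

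In the retina, both glucose importers and *Slc16a3* were higher with AAV::*nsHif1a*, while the other monocarboxylate carriers did not pass the test. A gene was called at an adjusted *p*-value (limma with Benjamini-Hochberg adjustment over all genes) under 0.05 and a log2FC above 0.5 or below -0.5. By this rule 3 of the 7 members were called higher and 0 lower, where 1.08% of the 18859 genes tested were called higher and 0.912% lower. Of these members, *Slc2a1* lost its call when *Xist* or endothelial RNA was taken into account, as given below. The AAV::*nsHif1a* and AAV::eGFP groups did not overlap, with the former higher, for 4 members, against 3.25% of all genes tested.

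*Slc16a3*, the exporter MCT4, changed most in the retina. It was at 70.5, 65.6, 71.9, 67.2 and 69.1 CPM in AAV::eGFP libraries 1 to 5 and at 125, 204, 158, 156 and 200 CPM in AAV::*nsHif1a* libraries 1 to 5. The lowest AAV::*nsHif1a* retina was above every control, and retinas 2 and 5 were the highest. The log2FC was 1.29 (SE 0.11, adjusted *p* = 1.5e-04 in limma). Retinas 1, 3 and 4 of the AAV::*nsHif1a* group were also those with most lens γ-crystallin RNA. The 6 lens markers summed to 634 to 2817 CPM in the controls and to 920 to 18955 CPM with AAV::*nsHif1a*, and with their mean as a covariate the log2FC of *Slc16a3* was 1.57 (limma adjusted *p* = 2.0e-05). Over the 10 libraries the deviations from the group means had r = -0.81 and rho = -0.87 with the lens sum for *Slc16a3*, r = -0.72 and rho = -0.76 for *Slc2a1* and r = -0.68 and rho = -0.66 for *Slc2a3*.

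*Slc2a1*, the importer GLUT1, stood at 244, 243, 231, 223 and 213 CPM in the AAV::eGFP retinas and at 282, 360, 339, 311 and 431 CPM in the AAV::*nsHif1a* retinas. The groups did not overlap, retina 5 of the AAV::*nsHif1a* group was the highest and retina 1 came closest to the controls. The log2FC was 0.58 (SE 0.08, adjusted *p* = 0.0021 in limma). *Xist*, the X inactivation transcript, had 19492 to 28595 counts in all 5 AAV::*nsHif1a* retinas and in AAV::eGFP retinas 1 and 2, and 1 to 3 counts in the other control retinas. With this class as a covariate the log2FC of *Slc2a1* was 0.49 (limma adjusted *p* = 0.027), and over the 7 libraries with *Xist* counts it was 0.49 (limma adjusted *p* = 0.074), so the call ended in both. GLUT1 is also made by vascular endothelium, and the 8 endothelial markers summed to 241 to 299 CPM in the controls and 282 to 348 CPM with AAV::*nsHif1a*, with 8 of 8 positive and 0 called. *Kdr* reached 4337 counts in a retinal library and every other marker at most 227, so that the sum is mostly *Kdr*. Within groups *Slc2a1* had r = 0.66 and rho = 0.70 with that sum. With the mean log2 CPM of the 8 markers as a covariate, added after the data were seen, *Slc2a1* had a log2FC of 0.49 (limma adjusted *p* = 0.029), again short of the fold threshold.

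*Slc2a3*, the importer GLUT3 known from neurons, was at 86.9, 87.0, 96.5, 87.0 and 92.4 CPM in the control retinas and at 129, 142, 133, 129 and 136 CPM in the AAV::*nsHif1a* retinas. Both groups were tight and lay far apart. The log2FC was 0.58 (SE 0.04, adjusted *p* = 1.5e-04 in limma), the same size as for *Slc2a1*. The share of *Slc2a3* in the summed importer level per length was therefore 29.6% ± 2.78 (n = 5) with AAV::*nsHif1a*, as in the control retinas.

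*Bsg* was at 647, 658, 631, 605 and 605 CPM in the control retinas and at 728, 805, 805, 838 and 758 CPM in the AAV::*nsHif1a* retinas. All 5 AAV::*nsHif1a* values were above all 5 controls. Its log2FC of 0.34 (SE 0.04, adjusted *p* = 0.0010 in limma) passed the *p* threshold but not the fold threshold, so it was not among the genes called.

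*Slc16a1*, the carrier MCT1, was at 181, 169, 216, 188 and 176 CPM in the control retinas and at 189, 187, 190, 202 and 175 CPM in the AAV::*nsHif1a* retinas. The groups overlapped almost wholly. The log2FC was 0.04 with a 95% confidence interval of -0.09 to 0.16 (adjusted *p* = 0.75 in limma), an interval that leaves out a change of the size seen for either importer. *Slc16a7*, the high-affinity carrier MCT2, was low, at 18.4 to 22.1 CPM in the controls and 16.1 to 19.2 CPM with AAV::*nsHif1a*. Its log2FC was -0.14 with an interval of -0.29 to 0.01 (adjusted *p* = 0.27 in limma).

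**Figure D1:**
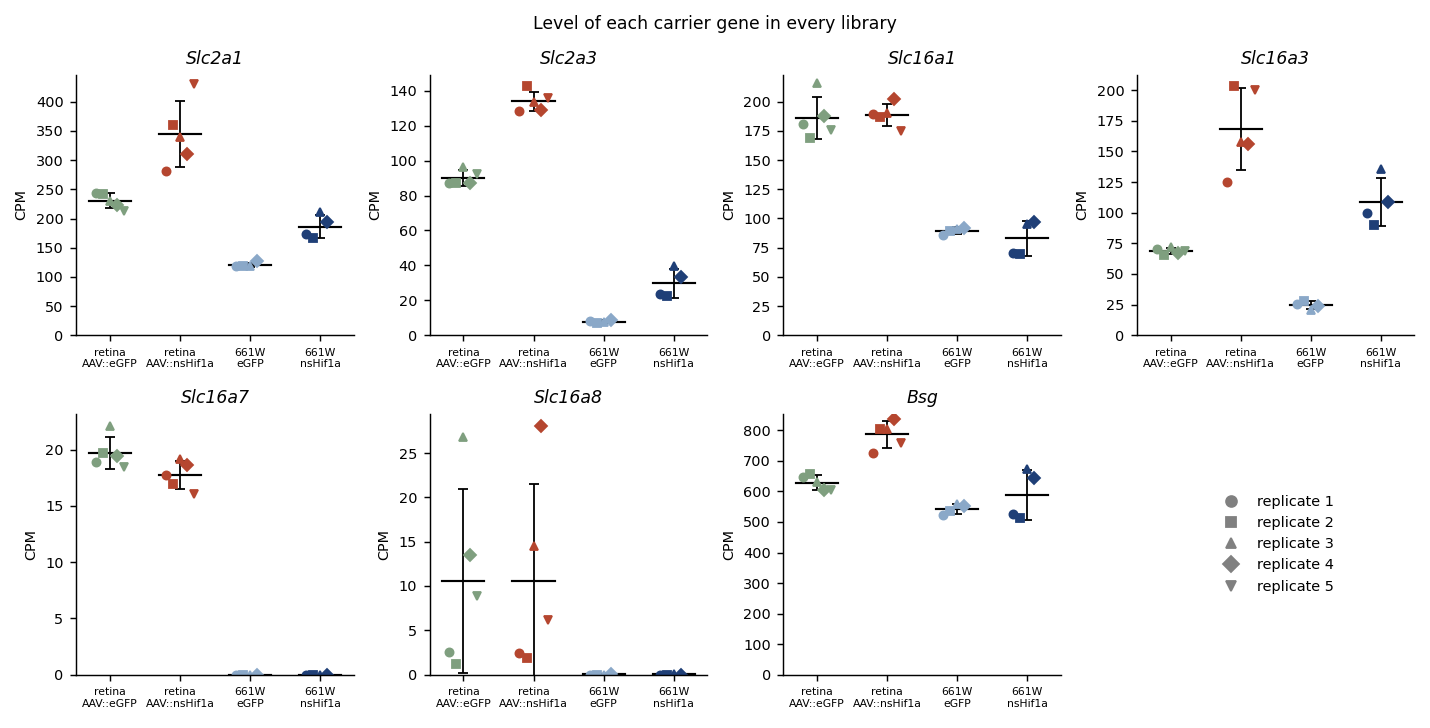
Level of the 7 genes in CPM (y axes, from 0) in every library of the 4 groups, with the replicate number as the marker shape and the mean ± SD as bars. *Slc2a1*, *Slc2a3* and *Slc16a3* separate by *nsHif1a* in both systems, *Bsg* separates in the retina and overlaps in the cells, and *Slc16a7* and *Slc16a8* sit at or near 0 in 661W cells.

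*Slc16a8*, the RPE carrier MCT3, varied more between retinas than any other member and did not follow the vector. It was at 2.52, 1.16, 26.9, 13.5 and 8.88 CPM in AAV::eGFP retinas 1 to 5 and at 2.40, 1.83, 14.5, 28.02 and 6.16 CPM in AAV::*nsHif1a* retinas 1 to 5. High and low retinas occurred in both groups, and the log2FC of -0.19 had an interval of -2.09 to 1.71 (adjusted *p* = 0.92 in limma). With the *Xist* class as a covariate the log2FC was 1.78 (SE 1.24), and over the libraries with *Xist* counts it was 1.83 (SE 1.41), so the sign turned in both (limma adjusted *p* = 0.49 and 0.57). The summed level of 11 RPE markers was 104, 90.2, 851, 380 and 266 CPM in the same AAV::eGFP retinas and 87.7, 68.7, 474, 1033 and 232 CPM in the AAV::*nsHif1a* retinas. Over the 10 libraries the deviations of *Slc16a8* from its group means followed those of the marker sum with r = 0.98 and rho = 0.99, and the 5 protein-coding genes most like it were *Lrat*, *Rgr*, *Pon1*, *Ttr* and *Thbs1*, with r from 0.9944 to 0.9986. *Lrat* and *Rgr* belong to the visual cycle of the RPE, and *Lrat*, *Rgr* and *Ttr* are themselves on the marker list. With the RPE marker mean as a covariate, *Slc16a8* had a log2FC of -0.31 (SE 0.18, limma adjusted *p* = 0.33), an SE well below the 0.88 without it. *Slc2a1*, which the RPE also makes, had r = -0.14 with the RPE sum, and with this covariate its log2FC was 0.57 (limma adjusted *p* = 0.0027). For *Slc16a1* the same r was 0.66, and its log2FC with the covariate was 0.04.

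**Figure D2:**
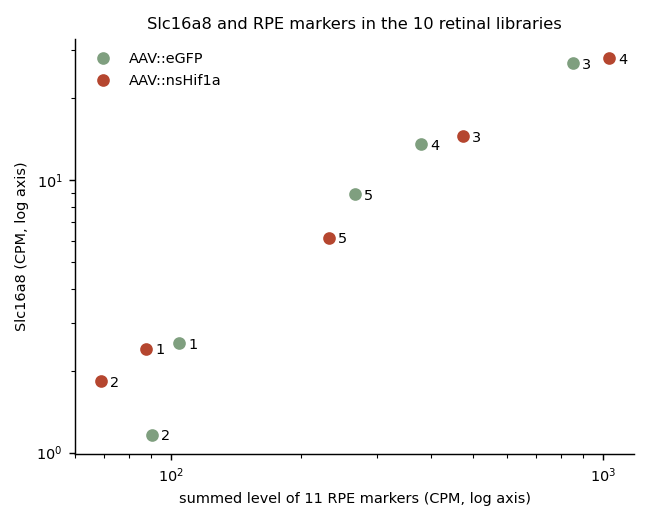
*Slc16a8* in CPM (y, log axis) against the summed CPM of 11 RPE markers (x, log axis) in the 10 retinal libraries, coloured by vector and numbered by replicate. The points of both groups fall along 1 line, from AAV::eGFP retina 2 at 1.16 CPM to AAV::*nsHif1a* retina 4 at 28.02 CPM.

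The other markers measured in the retina did not pass the test either. The 6 microglia markers were all positive with a median log2FC of 0.89 and the 8 rod markers were all negative with a median of -0.23, with 0 called in each list, against a median of -0.0021 over all genes tested. The rod sum was 43935 to 48648 CPM in the controls and 34305 to 45646 CPM with AAV::*nsHif1a*. Within groups the deviations of *Slc2a1* and *Slc16a3* had r = -0.84 and r = -0.72 with the rod sum over 10 libraries, but rho was -0.38 and -0.22. The part of these shifts in the members' values was not tested.

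In 661W cells the same importers and the same exporter rose, and by fold change *Slc2a3* and the exporter rose far more than *Slc2a1*. In mean level per length (exon union), *Slc2a1* went from 73.2 with eGFP to 115 with *nsHif1a*. *Slc2a3* went from 5.10 to 19.7 and *Slc16a3* from 6.02 to 27.1, so the order by amount was another. Of the 7 members, 5 had enough counts for the test, and 3 of these 5 were called higher and 0 lower, where 1.21% of the 15962 genes tested were called higher and 0.0626% lower. The same 3 had groups that did not overlap, against 7.51% of all genes tested with *nsHif1a* higher. Blocking on the replicate number kept the 3 members called, while the genes called over the whole table went from 193 higher and 10 lower to 88 and 0.

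*Slc16a3* was at 25.6, 28.1, 20.8 and 23.5 CPM in eGFP libraries 1 to 4 and at 99.6, 90.1, 136 and 109 CPM in *nsHif1a* libraries 1 to 4. Every transfected library was far above the controls, and the log2FC was 2.12 (SE 0.13, adjusted *p* = 1.1e-04 in limma). *Slc2a3* was at 8.41, 7.001, 7.47 and 8.48 CPM with eGFP and at 23.6, 22.4, 39.7 and 33.1 CPM with *nsHif1a*. Its log2FC was 1.86 (SE 0.20, adjusted *p* = 0.0019 in limma), and libraries 3 and 4 were the higher ones.

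*Slc2a1* was at 118, 118, 119 and 127 CPM with eGFP and at 173, 167, 211 and 194 CPM with *nsHif1a*, without overlap. Its log2FC was 0.61 (SE 0.07, adjusted *p* = 0.0024 in limma). *Slc16a1* was at 85.5, 89.7, 91.0 and 91.9 CPM with eGFP and at 70.7, 69.4, 95.5 and 96.6 CPM with *nsHif1a*, so that libraries 1 and 2 lay below all controls and libraries 3 and 4 above them. Its log2FC over all libraries was -0.14 (SE 0.10, adjusted *p* = 0.47 in limma). *Bsg* was at 523, 535, 558 and 554 CPM with eGFP and at 527, 512, 674 and 646 CPM with *nsHif1a*, so that libraries 3 and 4 lay above all controls and libraries 1 and 2 did not. Its log2FC was 0.10 (SE 0.08, adjusted *p* = 0.54 in limma). *Slc16a8* had 1 count in eGFP library 4 and 1 in *nsHif1a* library 3, and *Slc16a7* had 0 counts in 128637365, which allows up to 0.0233 CPM.

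**Figure D3:**
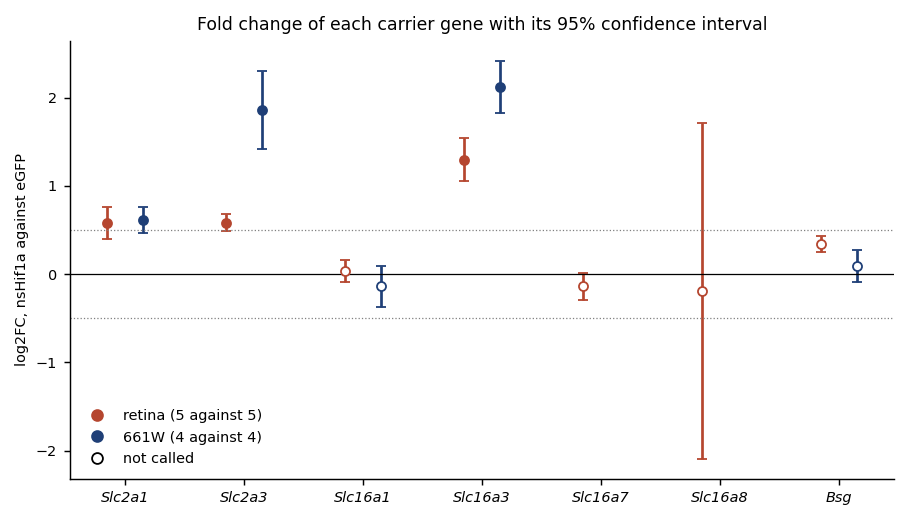
log2FC (y axis) of each member in the retina (red, 5 against 5 libraries) and in 661W cells (blue, 4 against 4) with the 95% confidence interval, the fold threshold as dotted lines and open circles for genes not called. *Slc2a1* has nearly the same log2FC in both (0.58 and 0.61), whereas *Slc2a3* and *Slc16a3* have the higher log2FC in the cells. *Slc16a7* and *Slc16a8* have no cell value.

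The cell libraries fell into pairs. Libraries 1 and 2, and libraries 3 and 4, of each group differed from each other by 1.46 to 1.56 times the sampling noise, and libraries of different pairs by 3.28 to 7.11 times. *Hif1a* itself was at 1222 and 1242 CPM in *nsHif1a* libraries 1 and 2 and at 1954 and 1825 CPM in libraries 3 and 4. The effect of *nsHif1a* was larger in libraries 3 and 4 than in 1 and 2 for all 5 members tested, by log2 differences of 0.20 (*Slc2a1*), 0.62 (*Slc2a3*), 0.64 (*Slc16a3*), 0.39 (*Slc16a1*) and 0.27 (*Bsg*), with limma adjusted *p*-values of 2.6e-05 to 0.034. Of all genes tested, 9.82% had an effect larger in libraries 3 and 4 at this threshold and 9.80% one larger in 1 and 2. Within libraries 1 and 2 the log2FC was 0.53, 1.58 and 1.82 for *Slc2a1*, *Slc2a3* and *Slc16a3*, and within libraries 3 and 4 it was 0.73, 2.19 and 2.47. For *Slc16a1* the log2FC was -0.32 within libraries 1 and 2 (limma adjusted *p* = 1.5e-05, under the fold threshold) and 0.07 within 3 and 4 (limma adjusted *p* = 0.41). For *Bsg* it was -0.02 within libraries 1 and 2 (limma adjusted *p* = 0.54) and 0.25 within 3 and 4 (limma adjusted *p* = 3.2e-06, under the fold threshold). The *p*-values of the effect differences and of the effects within pairs take their error from the spread inside pairs, which may be technical. The spread between pairs does not enter them. When the counts of each pair were summed, which leaves 2 against 2, 0 members and 0 of all genes were called, with log2FC values of 0.62, 1.89 and 2.15 for *Slc2a1*, *Slc2a3* and *Slc16a3* (limma adjusted *p* = 0.49, 0.30 and 0.14).

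The difference between both effects was tested with an interaction term over all 18 libraries. Each cell library entered as its own replicate although these libraries fell into pairs, and the term was not tested with the pairs summed. Here a gene was called at an adjusted *p*-value under 0.05, with no fold threshold, and 1.08% of the 20999 genes tested had an effect larger in the retina and 1.25% one larger in the cells. *Slc2a3* rose by a smaller factor in the retina than in 661W cells. The difference on the log2 scale came to -1.36 (SE 0.18) with an adjusted *p* of 7.5e-04 in limma. Without single libraries this difference ranged from -1.57 to -1.01. The control level of *Slc2a3* was higher in the retina by a log2FC of 3.63, so that factors are compared here and not amounts. *Slc16a3* also rose by a smaller factor in the retina, with a log2 difference of -0.86 (SE 0.20, adjusted *p* = 0.031 in limma). That call was close to the threshold. Blocking on the replicate number in both experiments gave an adjusted *p* of 0.071, blocking in the cells alone gave 0.046, and without AAV::eGFP retina 4 or 5, AAV::*nsHif1a* retina 3 or 4, or eGFP cell library 3 it was 0.054, 0.057, 0.066, 0.054 and 0.051 (limma). *Slc2a1* differed by -0.066 with an interval of -0.32 to 0.19. *Slc16a1* differed by 0.11 and *Bsg* by 0.20 (limma adjusted *p* = 0.70 and 0.26). Without *nsHif1a* cell library 3 or 4 the differences of *Bsg* were 0.38 in both cases and those of *Slc16a1* 0.36 in both, and both genes passed this *p* threshold (limma adjusted *p* from 9.6e-04 to 0.019). Tissue, vector, promoter and time differ together between the experiments, and total *Hif1a* RNA rose without overlap in the cells only. What these differences of effect follow cannot be told apart.

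The make-up of the monocarboxylate carrier RNA moved toward *Slc16a3* in both systems. *Slc16a3* held 13.2% ± 1.98 of their summed level per length in the control retinas and 26.6% ± 5.83 with AAV::*nsHif1a* (n = 5 each), and the ranges, 10.3% to 14.97% and 20.5% to 33.0%, did not overlap. In the cells its share was 11.6% ± 1.49 with eGFP and 38.6% ± 2.53 with *nsHif1a* (n = 4 each). *Slc16a1* remained the larger carrier by this length, at 62.0% ± 6.27 in the AAV::*nsHif1a* retinas and 61.4% ± 2.56 in the *nsHif1a* cells. This order depends on the length assigned to *Slc16a3*, whose exon union is much longer than its canonical transcript. By canonical length, added after the data were seen, *Slc16a3* held 42.5% and *Slc16a1* 49.0% in the AAV::*nsHif1a* retinas, and in the *nsHif1a* cells the order turned, with 56.1% and 43.9%. The importers moved differently. The share of *Slc2a1* was 70.5% ± 1.84 and 70.4% ± 2.78 in the retinas of both groups, whereas in the cells it was 93.5% ± 0.479 with eGFP and 85.6% ± 2.08 with *nsHif1a*, the rest being *Slc2a3*.

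**Figure D4:**
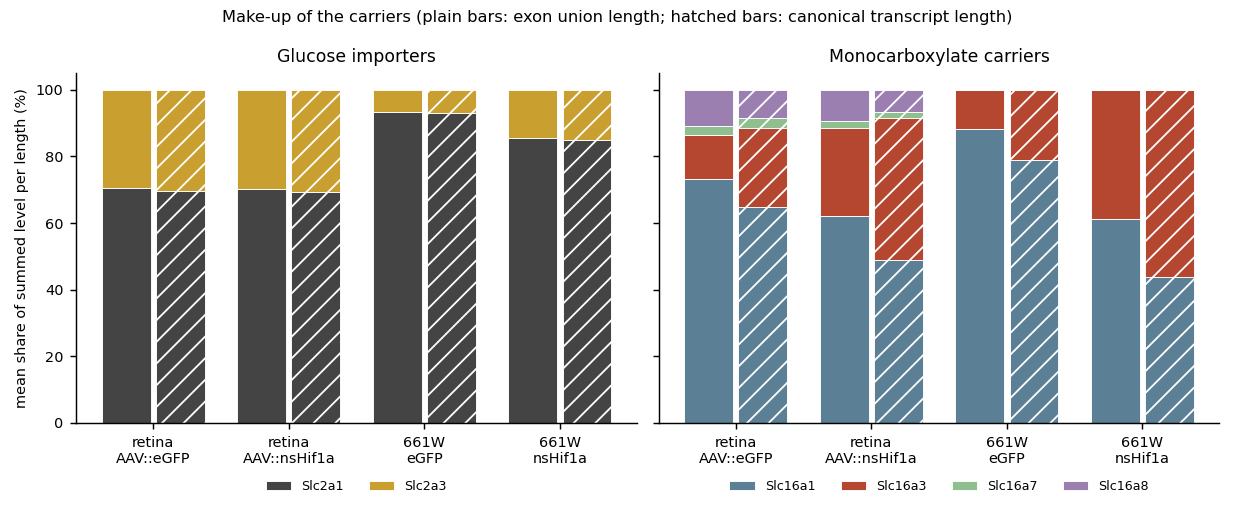
Mean share (y axis, %) of each gene in the summed level per length of the 2 glucose importers (left) and the 4 monocarboxylate carriers (right) in the 4 groups, by exon union length (plain) and canonical transcript length (hatched). *Slc16a3* takes a larger share with *nsHif1a* in both systems, from 13.2% to 26.6% in the retina and from 11.6% to 38.6% in the cells by exon union.

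The other lists are read against the 1.08% of all genes called higher in the retina and the 1.21% in the cells, so that no call among a few genes is no result about them. Of 12 further glucose transporters, 6 were tested in the retina and 4 in the cells, with median log2FC values of -0.10 and 0.65, and 0 were called in either. Of 12 further members of the monocarboxylate and sodium-coupled families, 10 and 5 were tested, with medians of -0.17 and -0.01, and 0 were called. Of 8 partners and regulators, which include the carrier partners *Emb* and *Nptn*, the rod-derived cone viability factor *Nxnl1*, which binds basigin, and *Txnip*, which promotes removal of glucose importers from the membrane, 8 and 5 were tested, with medians of 0.05 and -0.01, and 0 were called. Among 17 glycolysis enzymes, 16 of 17 tested were positive in the retina with a median log2FC of 0.28, and 1 was called, *Ldha*, which makes lactate from pyruvate (log2FC 0.50, SE 0.04, adjusted *p* = 1.5e-04 in limma), where 1.08% of all genes were. In the cells 13 of 15 tested were positive with a median of 0.12, and 2 were called, the phosphofructokinase *Pfkl* (0.88, SE 0.11) and the enolase *Eno2* (0.76, SE 0.06), where 1.21% of all genes were. The medians over all genes tested were -0.0021 in the retina and -0.0013 in the cells.

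By the deviations from group means over the 10 retinas, the genes most like the members other than *Slc16a8* were *Pnrc1* (r = 0.967, rho = 0.927) for *Slc2a1*, *Gm32687* (r = 0.936, rho = 0.879) for *Slc2a3*, *Elof1* (r = 0.966, rho = 0.915) for *Slc16a3*, *Rimoc1* (r = 0.974, rho = 0.952) for *Slc16a1*, *Magi3* (r = 0.954, rho = 0.915) for *Slc16a7* and *Gpr149* (r = 0.963, rho = 0.939) for *Bsg*. In the 8 cell libraries, where libraries 1 and 2 stand apart from 3 and 4, they were *Flacc1* (r = 0.996) for *Slc2a1*, *Klhl26* (r = 0.996) for *Slc2a3*, *Camk2g* (r = 0.987) for *Slc16a3*, *Cstb* (r = 0.998) for *Slc16a1* and *Ecm1* (r = 0.997) for *Bsg*. With 14315 and 12087 genes compared over 10 and 8 libraries, values of this size are a description of these libraries only.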

How the data were processed

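Paired-end reads of stranded libraries were aligned to GRCm39 by the authors using Rsubread, and featureCounts assigned them to gencode M36 basic genes on the antisense strand. The values deposited are raw counts, in a separate table for retina and cells. Since the counting used strand, overlapping genes on opposite strands were counted apart. From the deposited counts, genes with low counts were removed with filterByExpr (minimum count 10), TMM factors were computed (edgeR 4.0.16), and limma 3.58.1 (R 4.3.3) was run with voomWithQualityWeights, as in the study's methods. Adjusted *p*-values are Benjamini-Hochberg over all genes tested. CPM values use the same scaling, and log2 CPM a prior count of 2. Filters, tests and calls were fitted on whole tables and tried on simulated counts. These were drawn independently for each library, without pairs of libraries or set differences in *Xist*, lens or RPE RNA, and so do not address those features. A total of 3 counts corresponds to 0.168 to 0.233 CPM in a single library. The limits from 3 counts and the exact interval of the *Slc16a8* ratio cover counting error only. The intervals of the log2FC values come from limma and include the spread between libraries.

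Coordinates, lengths and promoters come from gencode M39 on GRCm39, which matched 78168 of 78239 genes by Ensembl ID. No member shares exon bases with another gene on its strand, and at most 1.16% of 50-base words of a member occur in another gene. Groups and replicate numbers come from the labels. In the cells the deviations of same-numbered libraries from their group means correlated at 0.23 to 0.27. Those of number 1 with 2, and of 3 with 4, correlated as much across the groups, at 0.25 to 0.29. The cell libraries thus group as 1 and 2 against 3 and 4, and no pairing by single numbers shows. In the retina same-numbered libraries correlated at -0.15 to 0.14, and the numbers do not pair the libraries. The members and the gene lists were chosen with earlier results of these data known. Besides the members and *Hif1a*, genes were named by rule as the called genes of a list and the genes most like a member, and list genes on which a member's result turns. The alternatives tried were DESeq2 1.42.0, the quasi-likelihood test of edgeR, unweighted voom, other size factors, filters and fold thresholds, the replicate block, covariates, the pairs of cell libraries, other lengths and the omission of each library. The endothelial covariate, the block of the cells alone and the canonical length were chosen after seeing the data.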

Additional observations from a re-analysis of the deposited data

Results flagged for a closer look

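The fold changes of 2 members differed between retina and 661W cells by the interaction test. The log2 difference was -1.36 for *Slc2a3* and -0.86 for *Slc16a3*, both with the smaller fold change in the retina. Tissue, vector, promoter and time also differ between these experiments. Among 24 combinations of a member and a group, 1 had a library far from the others, eGFP cell library 4 with *Slc2a1* at 127 CPM against 118 to 119 CPM in the other 3. Chance alone marks about 1 in 20 such groups.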

How the results depend on the processing

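Among the members, *Slc2a3* and *Slc16a3* kept their call in the retina under every alternative but a log2FC threshold of 1, under which 1 member was called, *Slc16a3*. The call of *Slc2a1* ended with the *Xist* class, the libraries with *Xist* counts alone and the endothelial covariate. In the cells 0 members were called when the pairs of libraries were summed. The 3 members called in each experiment stayed 3 without any single library. The replicate block left these calls in place and left 1 member with a smaller effect in the retina, *Slc2a3*. Without single libraries, 1 to 2 members had a smaller and 0 to 2 a larger effect in the retina.

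Values close to 0 changed sign. *Slc16a8* in the retina had a log2FC of 1.78 with the *Xist* class as a covariate and 1.83 in the libraries with *Xist* counts, and -0.83 to 0.71 without single libraries. In the cells *Slc16a1* ranged from -0.33 to 0.083 and *Bsg* from -0.045 to 0.26 without single libraries, *Slc16a1* was 0.071 within libraries 3 and 4, and *Bsg* was -0.024 within 1 and 2. The difference of effects ranged from -0.15 to 0.074 for *Slc2a1* and from -0.049 to 0.36 for *Slc16a1*. By canonical length the shares of *Slc16a1* and *Slc16a3* were 64.9% and 23.7% in control retinas, 49.0% and 42.5% with AAV::*nsHif1a*, 78.9% and 21.1% in control cells and 43.9% and 56.1% with *nsHif1a*.

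Over all genes, 203 higher and 172 lower in the retina became 64 to 625 and 37 to 466, 193 and 10 in the cells became 0 to 1213 and 0 to 682, and 227 and 262 for the difference of effects became 107 to 1664 for a larger and 141 to 1456 for a smaller effect in the retina. Blocking on the replicate number gave 127 and 52 for the retina, then 88 and 0 for the cells, and 112 and 146 for the difference of effects. Leaving out *nsHif1a* cell library 3 or 4 gave 1201 or 1194 genes higher in the cells and 1641 or 1664 with a larger effect in the retina, and leaving out AAV::eGFP retina 2 gave 313 higher in the retina.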
